A study of Homo sapiens with 6 samples.

Results

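Retained-intron transcripts are RNAs of a gene in which all or part of an intron is still present in an exon. In the tables compared here they were the largest annotated class. A table row was taken as a member when its gene ID, strand, start and end matched annotated transcripts of GENCODE 44 (GRCh38) that were all of the type retained intron. This gave 25936 of 81818 rows (31.7%), from 9332 genes, of which 25455 rows (98.1%) belonged to protein-coding genes, 391 to lncRNA genes and 90 to pseudogenes. A row gives a span and no exons, so the exons were taken from the annotation. The span of 61 members matched 2 or 3 retained-intron transcripts, 62 members shared gene ID and span with another row, and 135 rows whose span also fitted another transcript type were left out.

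The study sequenced rRNA-depleted RNA of A549/DDP cells, the line derived from A549 that is resistant to cisplatin (DDP, spelled DPP in the labels), and of A549 cells, a long-established cell line from a human adenocarcinoma of the lung. There were 3 libraries per line, from cells at passages 6 to 8. A549/DDP cells were kept in 1 µg/mL DDP and A549 cells were not, so an effect of the drug in the medium cannot be told apart from resistance. Each line is 1 line, the labels call the source human lung tissue although these are cultured cells, and they do not say whether the libraries came from separate cultures, so p values measure the spread between libraries, which may be technical. Levels are in FPKM, a count of fragments divided by transcript length and by the library's mapped fragments. The number of reads behind a value is unknown, and in such bulk RNA fewer cells with a transcript and less of it per cell cannot be told apart. Coding transcripts have almost no rows of their own in these tables, so the level of a spliced mRNA of the same gene was not compared here.

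Intron retention is a form of alternative splicing in which the spliceosome leaves an intron in place. Such RNAs are often kept in the nucleus as detained transcripts that can be spliced later, or are exported and then degraded by nonsense-mediated decay when the intron brings a stop codon into frame. Retained introns are known to be short and rich in G and C, with weak splice sites. Genes for splicing factors themselves, such as the SR proteins and the CLK kinases, are known for controlling their own output in this way.

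The introns printed here are shown because each lies whole inside an exon of 1 of 4 members described further on, so that the RNA keeps letters that splicing removes from the mRNA. PTGS2-203 and MAT2A-205 also have an end exon that runs into an intron. Each sequence is read 5′ to 3′ from GRCh38. Capitals mark the first 6 bases, at the 5′ splice site, and the last 2 bases, at the 3′ splice site.
GAPDH-208: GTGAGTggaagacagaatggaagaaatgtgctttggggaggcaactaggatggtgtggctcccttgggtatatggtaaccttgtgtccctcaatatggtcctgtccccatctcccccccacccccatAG
PTGS2-203: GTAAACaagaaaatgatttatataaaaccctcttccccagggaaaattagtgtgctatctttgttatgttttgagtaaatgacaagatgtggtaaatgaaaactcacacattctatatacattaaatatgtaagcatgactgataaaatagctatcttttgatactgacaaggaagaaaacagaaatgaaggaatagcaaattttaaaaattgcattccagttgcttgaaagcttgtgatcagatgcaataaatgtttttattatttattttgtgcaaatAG
MAT2A-205: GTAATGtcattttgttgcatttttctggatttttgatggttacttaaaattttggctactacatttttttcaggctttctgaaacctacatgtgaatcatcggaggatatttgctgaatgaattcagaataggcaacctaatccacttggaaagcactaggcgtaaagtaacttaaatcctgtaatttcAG
UPF1-212: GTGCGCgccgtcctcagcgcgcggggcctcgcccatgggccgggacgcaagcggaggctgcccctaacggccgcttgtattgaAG
The intron in GAPDH-208 is intron 4 of 8 of the canonical transcript, at chr12:6536791-6536919 on the plus strand, and has 129 bases. In the frame of the coding sequence that precedes it, a stop codon begins after 1 base of the intron. The intron in PTGS2-203 is intron 7 of 9, at chr1:186676185-186676466 on the minus strand, with 282 bases, of which 28.7% are G or C, and the stop codon begins after 47 bases. MAT2A-205 holds intron 6 of 8, at chr2:85542374-85542564 on the plus strand, with 191 bases, 34.0% G or C, and a stop codon after 33 bases. UPF1-212 holds intron 10 of 23, at chr19:18855039-18855123 on the plus strand. At 85 bases and 72.9% G or C it was the shortest and the richest in G and C of these 4, and it has no stop codon in that frame.

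The members did not all hold a whole intron. In 7573 members (29.2%) at least 1 intron of a coding transcript of the gene lay wholly inside an exon, 1 intron in 5709, 2 in 1264 and 3 or more in 600, with 13 in CARMIL2-203 at most. In 7598 members (29.3%) only the first exon began within an intron, in 7623 (29.4%) only the last exon ended within one, in 2279 (8.79%) both did so, and 863 (3.33%) had none of these. The median member had 276 intronic bases, which was 36.4% of its exonic bases. The remaining bases lie in exons of coding transcripts, where a read cannot by itself be told apart from one of the spliced mRNA. The annotated span, from start to end, had a median of 4242 bases among members, against 9366 bases among the 22477 rows of coding genes whose coding sequence is not defined (CDS-not-defined rows) and 6824 bases among the 21246 lncRNA rows. Exonic length ran the other way, with a median of 724 bases in members and 581 in CDS-not-defined rows. Among the 5477 genes with rows of both types, the median span of the retained-intron rows was the shorter one in 60.6%.

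The 10362 introns held whole in members were short. Their median length was 263 bases, and 54.6% had 300 bases or less, against a median of 1840 bases and 14.6% for the 160711 other introns of the same genes. Retained introns had a median of 56.7% G or C, against 44.1% in the others. Within 86.8% of the 3901 genes with both kinds of intron, the retained ones were shorter, and in 61.3% they were richer in G and C. Counting only introns that lie whole inside an exon favours short ones, since members had a median of 724 exonic bases. The gap in length therefore follows in part from the definition. The 5′ splice site GTAAGT, the letters that pair best with U1 snRNA, opened 7.73% of the retained introns and 13.0% of the others, whereas GTGAGT opened 14.6% and 13.5%. Of 7303 retained introns of canonical coding sequences, 85.0% brought a stop codon into frame, and among those of 300 bases or less 75.1% did, beside 77.2% of the other introns of that length. These values describe the annotation, and no test was made on them.

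**Figure D1:**
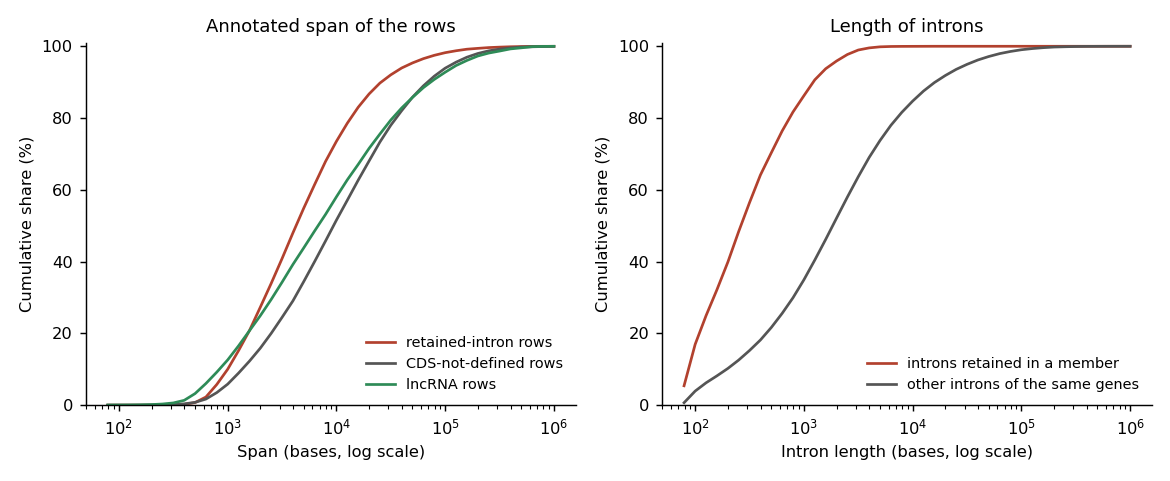
Left, cumulative share (%) of rows by annotated span in bases (log scale) for retained-intron, CDS-not-defined and lncRNA rows, with medians of 4242, 9366 and 6824 bases. Right, cumulative share (%) of introns by length in bases (log scale) for introns held whole in a retained-intron row (median 263 bases) and for the other introns of the same genes (median 1840 bases).

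Retained-intron rows were found more often in these cells than CDS-not-defined and lncRNA rows. Only 3813 of the members (14.7%) were listed at 0 in every library, against 29.2% of CDS-not-defined rows and 63.5% of lncRNA rows. The filter of the test between lines, 0.5 FPKM reached by 3 libraries or more, was passed by 10168 members (39.2%), 23.2% of CDS-not-defined rows and 8.65% of lncRNA rows. Levels were concentrated in few members. At 10 FPKM or more, the A549/DDP libraries held 359 to 373 members and the A549 libraries 359 to 387. The 10 most abundant members took 17.3%, 20.1% and 17.6% of the retained-intron FPKM in A549/DDP cells, against 13.5%, 9.95% and 13.4% in A549 cells.

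The first comparison asked whether the class as a whole differed between the lines. Retained-intron rows held a larger share of the FPKM summed over all deposited rows of a library in A549/DDP cells. The shares were 49.8%, 51.8% and 50.6%, against 46.2%, 46.6% and 46.8% in A549 cells. Coding transcripts have almost no rows in that sum, so these are not shares of the RNA of the cells. All A549/DDP libraries lay above all A549 libraries. The means were 50.7% ± 1.05 in A549/DDP cells and 46.5% ± 0.323 in A549 cells (SD, n = 3 each), a difference of 4.19 percentage points (two-sided exact permutation test, p = 0.1, the smallest that 3 against 3 libraries can give). The summed FPKM of the class was 34062.6, 33768.8 and 34721.6 in A549/DDP cells and 28133.7, 29167.1 and 27171.5 in A549 cells. The sum of all other rows overlapped between the lines, at 33239 ± 1632 in A549/DDP cells and 32361 ± 1328 in A549 cells (SD, n = 3 each, exact permutation p = 0.5). Over the same libraries, CDS-not-defined rows held 23.4% ± 0.129 in A549/DDP cells and 24.7% ± 0.612 in A549 cells (SD, n = 3 each).

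A pair of transcripts carried a large part of that difference. GAPDH-208 alone made up 8.25%, 8.59% and 7.86% of the retained-intron FPKM in A549/DDP cells, against 4.53%, 3.21% and 4.07% in A549 cells. KRT8-211 made up 4.74%, 5.66% and 3.90% in A549/DDP cells, against 1.79%, 0.828% and 1.55% in A549 cells. Bases outside every exon of a coding transcript were 102 of 1333 exonic bases in GAPDH-208. In KRT8-211, which holds no whole intron, they were 132 of 770. On the other bases of these rows a read cannot by itself be told apart from one of the spliced mRNA. Without both rows the share was 47.2% ± 0.876 in A549/DDP cells and 45.2% ± 0.538 in A549 cells (SD, n = 3 each), a difference of 2.07 points, and the libraries of the lines still did not overlap. Without the 10 most abundant members the difference was 2.37 points. More members also reached 0.5 FPKM in A549/DDP cells, 10200, 9840 and 10470, against 8405, 9399 and 7867 in A549 cells. Rows of all types did so as well, at 20037 to 21280 in A549/DDP libraries and 16696 to 19506 in A549 libraries, and the part of the unknown sequencing depth in these counts was not tested.

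The second measure was the span length of the class, weighted by FPKM and averaged on the log scale. It was 4889, 4848 and 5025 bases in A549/DDP cells, against 5162, 5338 and 5097 bases in A549 cells. The A549/DDP libraries were the shorter ones throughout, by 279 bases on average (exact permutation p = 0.1, the smallest possible). This difference rested on the same pair of rows. Without GAPDH-208 (span 3774 bases) and KRT8-211 (span 2411 bases) the means were 5246 bases in A549/DDP cells and 5327 bases in A549 cells, the libraries overlapped, and the difference fell to -81.6 bases (exact permutation p = 0.3). Members with a span of 10000 bases or more held 24.7%, 24.8% and 25.8% of the retained-intron FPKM in A549/DDP cells, against 28.1%, 29.2% and 26.8% in A549 cells. A shorter weighted span was not particular to the class. For lncRNA rows it was 2450 ± 117 bases in A549/DDP cells and 2948 ± 51.0 in A549 cells, without overlap (SD, n = 3 each). For CDS-not-defined rows it was 6985 ± 262 and 7194 ± 166 bases, and the lines overlapped.

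The third measure set retained-intron rows against CDS-not-defined rows of the same gene, which removes a change that both share. It was taken over the 1962 genes in which the FPKM sum of each type reached 0.5 in at least 3 libraries, as the log2 of the retained-intron sum plus 1 over the CDS-not-defined sum plus 1. In most genes the retained-intron side was the larger. The ratio was above 0 in all 6 libraries in 768 genes and below 0 in all of them in 249. The median over genes was 0.50, 0.49 and 0.54 in A549/DDP cells, against 0.41, 0.47 and 0.37 in A549 cells. The lines did not overlap, but they lay only 0.09 apart (exact permutation p = 0.1, the smallest possible), and they overlapped when A549 replicate 3 was left out, where the difference was 0.06. Summed over these genes, retained-intron FPKM was 2.04, 2.29 and 2.20 times the CDS-not-defined FPKM in A549/DDP cells, against 1.77, 1.78 and 1.86 times in A549 cells. The retained-intron sums averaged 15132 in A549/DDP cells and 12597 in A549 cells, while the CDS-not-defined sums averaged 6967 and 7001. Without the 10 genes of highest FPKM the lines overlapped, at 1.75 ± 0.0804 in A549/DDP cells and 1.61 ± 0.0682 in A549 cells (SD, n = 3 each).

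**Figure D2:**
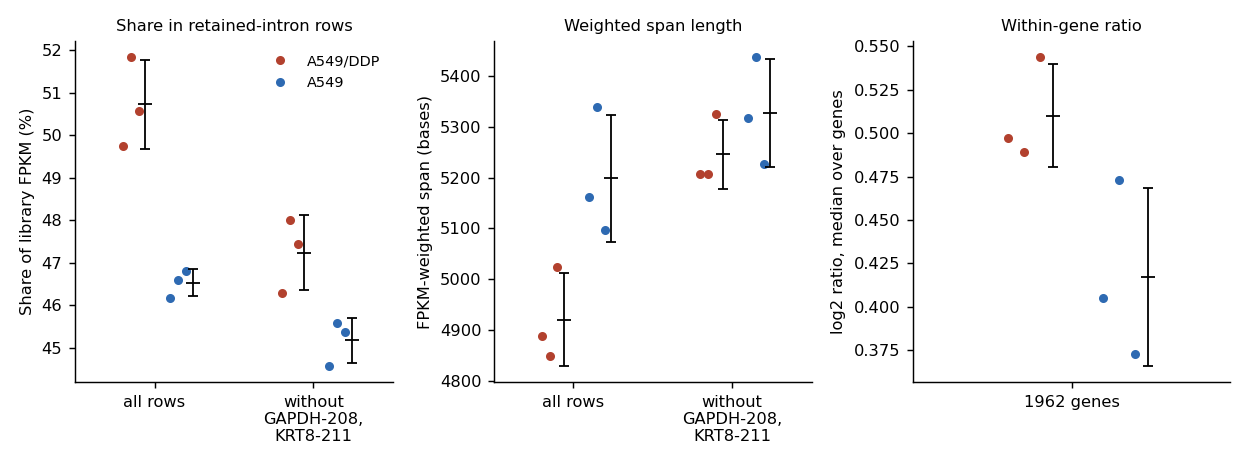
Share of library FPKM in retained-intron rows (%), their FPKM-weighted span (bases) and the median over 1962 genes of the log2 within-gene ratio, in A549/DDP (left) and A549 (right) libraries. The share is of the FPKM summed over all deposited rows of a library, among which coding transcripts are almost absent. Points are libraries and bars the mean and SD of 3, on axes that do not start at 0. Over all rows the lines are apart in each panel, and without GAPDH-208 and KRT8-211 (second pair in the first panels) the spans overlap.

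The most abundant members belonged to genes of metabolism, the cytoskeleton and translation. GAPDH-208, a transcript of the glycolytic enzyme GAPDH (ENSG00000111640, chr12:6534541-6538314), had 2811, 2902 and 2729 FPKM in A549/DDP cells, against 1274, 937 and 1105 FPKM in A549 cells. It was the highest member in every library, and on the log2(FPKM + 1) scale the lines lay 1.36 ± 0.12 (standard error) apart (adjusted p = 0.00434 from limma). Quantile normalization, which gives each library the same set of values, left it a log2 fold change of 0.28. That method draws values at the top ranks together, so it cannot show whether this difference depends on scaling. Median-ratio scaling left 1.06 (adjusted p = 0.0382 from limma, above the threshold of 0.01). The other GAPDH members were far lower, with GAPDH-206, named after its values were seen, at 5.32, 5.67 and 5.30 FPKM in A549/DDP cells and 10.5, 5.30 and 10.9 FPKM in A549 cells. KRT8-211, of the keratin that marks simple epithelia (ENSG00000170421, chr12:52899794-52902204), had 1615, 1912 and 1356 FPKM in A549/DDP cells, against 504, 242 and 421 FPKM in A549 cells. Its log2 fold change of 2.11 (standard error 0.27) narrowly missed the threshold (adjusted p = 0.0105 from limma). ALDH3A1-208, of an aldehyde dehydrogenase, had 211, 231 and 222 FPKM in A549/DDP cells, against 112, 91.4 and 91.8 FPKM in A549 cells, and also lay apart without passing (adjusted p = 0.0225 from limma).

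Other abundant members differed widely between libraries of 1 line. TUBA1B-201, of an alpha tubulin, had 275, 1.86 and 1.37 FPKM in A549/DDP cells, against 179, 154 and 141 FPKM in A549 cells. PKM-220, of pyruvate kinase, had 195, 161 and 411 FPKM in A549/DDP cells, against 44.7, 452 and 28.7 FPKM in A549 cells. LDHA-202, of lactate dehydrogenase, had 20.0, 35.6 and 217 FPKM in A549/DDP cells, against 223, 36.1 and 252 FPKM in A549 cells. In these cases libraries of 1 line stood up to 10-fold or more apart, and the lines overlapped. Without A549/DDP replicate 1, TUBA1B-201 was called lower (log2 fold change -5.93, adjusted p = 0.00169 from limma), against an adjusted p of 0.243 with it. Among 354 members with a mean of 10 FPKM or more, 47 (13.3%) had such a 10-fold gap within a line, on FPKM plus 1. For the sums over all members of a gene it was 19 of 538 (3.53%). RPL4-207, of a ribosomal protein, had 475 to 966 FPKM in A549/DDP cells and 450 to 706 FPKM in A549 cells, and FTH1-211, of ferritin heavy chain, had 159 to 245 FPKM in A549/DDP cells and 156 to 388 FPKM in A549 cells, so both overlapped. EEF1G-203, of an elongation factor subunit, lay at 60.7 to 280 FPKM in A549/DDP cells, below its 285 to 311 FPKM in A549 cells (adjusted p = 0.253 from limma), and FLNA-215, of an actin crosslinker, overlapped.

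**Figure D3:**
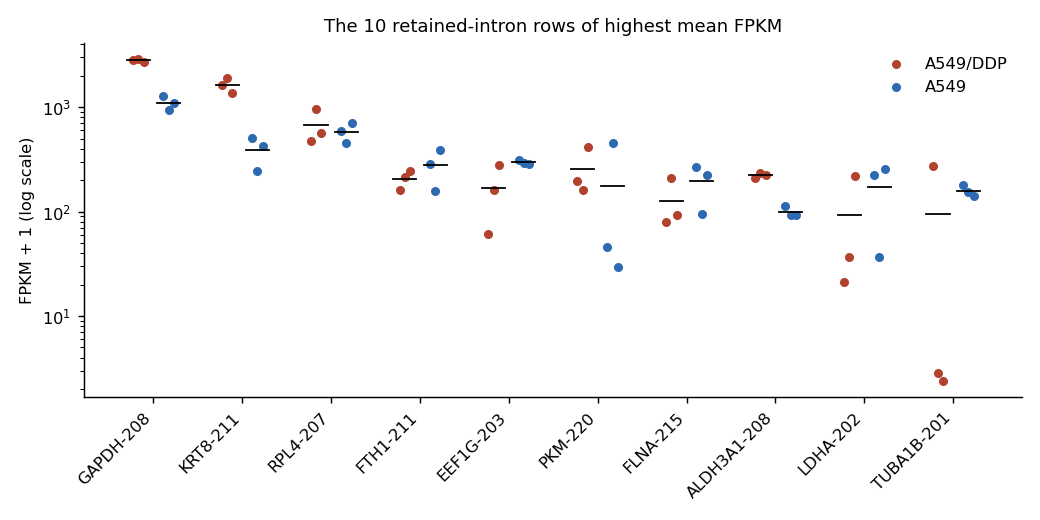
FPKM plus 1 (log scale) of the 10 retained-intron rows of highest mean FPKM, in 3 A549/DDP libraries (left of each pair) and 3 A549 libraries (right). Points are libraries and lines are means, and GAPDH-208, KRT8-211 and ALDH3A1-208 are higher in every A549/DDP library, and TUBA1B-201, PKM-220 and LDHA-202 spread over 10-fold within a line.

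Row by row, 24 members were higher and 9 lower in A549/DDP cells by limma on log2(FPKM + 1), where a call needed a change of over 1 in log2 and p under 0.01 once adjusted over all 20663 rows tested. These are 0.236% and 0.0885% of the 10168 members tested, beside 0.353% and 0.198% of rows of any type. The libraries of the lines did not overlap in 2616 members (25.7%), beside 27.9% of rows of any type. At an unadjusted p under 0.05 there were 1531 members higher and 502 lower, 20.0% of those tested, beside 21.7% of rows of any type. The median log2 fold change of the members was 0.16, that of all rows tested 0.14 and that of CDS-not-defined rows 0.12, and median-ratio scaling, which sets the typical row to no change, left the members at 0.02 and called 13 higher and 9 lower. Few members were called with 5 libraries, 1 without A549/DDP replicate 1, 1 without A549 replicate 3 and 0 without any of the other 4 (limma). The 1 called without A549/DDP replicate 1 was TUBA1B-201, which was not called with all 6. The fold changes without 1 library were followed in the 18 called members picked by the rules for naming, which include KRT8-213 and leave out SPARC-202. For them, 84 fits without 1 library gave 88.7% to 110% of the log2 fold change with all 6. In the 24 other cases the member no longer passed the filter. Members picked as called tend to have a small spread within a line, so this narrow range is no support for them. Over all settings the log2 fold change of RGS14-212 ran from 2.62 to 9.26 and that of OSBPL5-204 from -8.14 to -2.34. That of KRT8-203 ran from 2.15 to 2.56.

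The member with the widest rise was FXYD2-208, of a regulator of the sodium pump. It had 23.7, 24.2 and 14.3 FPKM in A549/DDP cells, against 0.425, 0.0954 and 0 FPKM in A549 cells (adjusted p = 0.0024 from limma). PTGR1-203, of prostaglandin reductase, had 49.9, 45.3 and 50.6 FPKM in A549/DDP cells, against 3.84, 8.17 and 7.15 FPKM in A549 cells. AKR1C3-210, of an aldo-keto reductase, had 46.1, 35.4 and 41.2 FPKM in A549/DDP cells, against 4.15, 7.27 and 5.21 FPKM in A549 cells. These 3 rows were at least several times higher in each A549/DDP library than in any A549 library. SPP1-205, of osteopontin, had 43.3, 36.6 and 30.2 FPKM in A549/DDP cells, against 4.01, 1.77 and 5.44 FPKM in A549 cells, and VCAN-206, of versican, had 7.34, 10.1 and 15.0 FPKM in A549/DDP cells, against 0.638, 0.598 and 1.05 FPKM in A549 cells. KRT8-203 had 56.5, 61.4 and 75.3 FPKM in A549/DDP cells, against 10.6, 9.44 and 13.2 FPKM in A549 cells. The other members among the 10 with the widest rise were ATP5MC3-205, of a subunit of ATP synthase, RGS14-212, of a regulator of G protein signaling, CUL3-211, of a scaffold of ubiquitin ligases, and THAP12-204. The log2 fold changes of ATP5MC3-205, CUL3-211 and THAP12-204 lay between 2.47 and 2.91. RGS14-212 was listed at 0 in all A549 libraries and had 5.86, 6.13 and 6.32 FPKM in A549/DDP cells.

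Of the members that fell, PTGS2-203, of cyclooxygenase 2, changed most. It had 2.18, 1.71 and 3.84 FPKM in A549/DDP cells, against 31.6, 90.8 and 59.4 FPKM in A549 cells, which is -4.03 ± 0.44 (standard error) on the log2 scale (adjusted p = 0.00654 from limma). CASP4-212, of an inflammatory caspase, had 0.205, 0.111 and 0 FPKM in A549/DDP cells, against 7.94, 4.56 and 7.96 FPKM in A549 cells. PFDN5-216, of a prefoldin subunit, had 0.202, 0.247 and 0.185 FPKM in A549/DDP cells, against 4.33, 8.06 and 5.18 FPKM in A549 cells. The intron printed for PTGS2-203 is poor in G and C, unlike most introns of the class. STARD10-204, of a lipid transfer protein, OSBPL5-204, of an oxysterol-binding protein, and CA8-202, of a carbonic anhydrase-related protein, had log2 fold changes between -2.58 and -2.34. All 33 called members had lines that did not overlap. In most of them every library of the lower line was below 0.5 FPKM, so the filter was passed only through the other line. For those members the gap between the lines followed from the filter and is no support. Of the 33, 4 risers and 3 fallers were listed at 0 in every library of the other line.

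**Figure D4:**
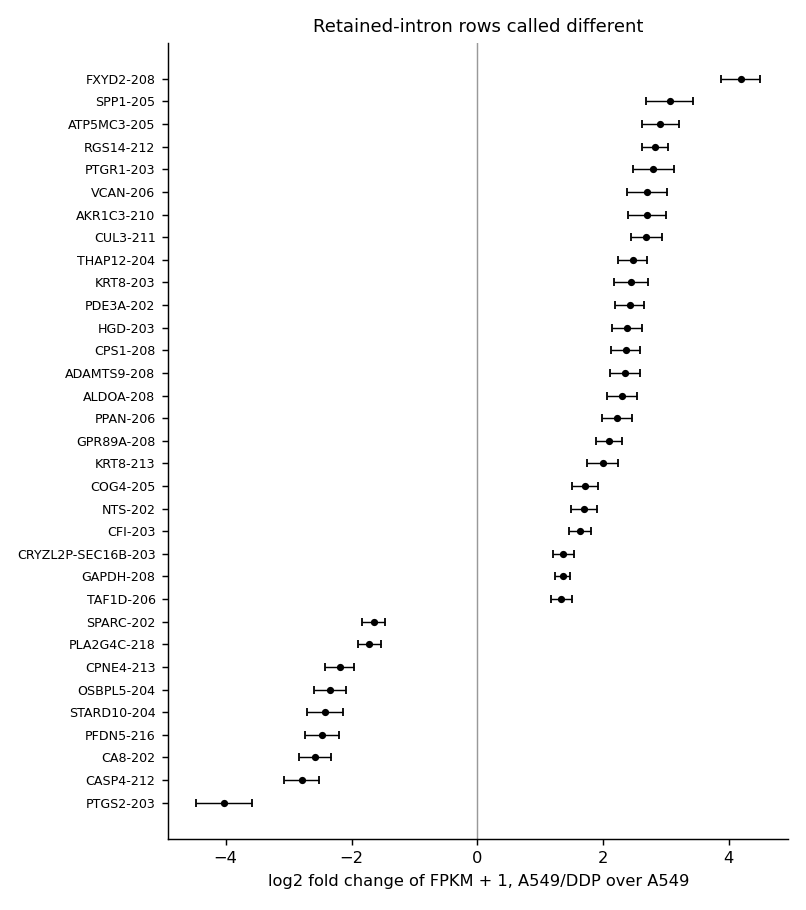
Log2 fold change of FPKM plus 1, A549/DDP over A549, with its standard error, for the 33 retained-intron rows called different by limma, 7 of them listed at 0 in every library of a line. The 24 above 0 run up to FXYD2-208 at 4.19, and the 9 below 0 run down to PTGS2-203 at -4.03.

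The FPKM of the members of a gene was also summed, a test added after the rows had been seen. Of 5381 gene sums of retained-intron rows, 33 were higher and 16 lower in A549/DDP cells (limma, adjusted over 13123 sums of all kinds), which is 0.613% and 0.297%, beside 0.823% and 0.594% of sums of any kind. After median-ratio scaling the split was 24 higher and 25 lower, and after quantile normalization 30 higher and 23 lower, so which side holds more depends on the scaling. In many of the 49 called sums every library of the lower line was below 0.5 FPKM. Those sums passed the filter only through the other line, so their gap between the lines followed from the filter and is no support. The gene had a called row in 23 of the 49. In the other 26 no single row passed. CD44, a hyaluronan receptor, was one of these, with 11.5, 9.89 and 12.5 summed FPKM over 9 rows in A549/DDP cells, against 62.2, 47.9 and 118 in A549 cells. SRC, a tyrosine kinase, was another, with 24.4, 25.1 and 25.6 summed FPKM over 4 rows in A549/DDP cells, against 7.44, 6.80 and 4.97 in A549 cells. CPS1, the first enzyme of the urea cycle, which also had a called row, had 25.1, 23.8 and 24.8 summed FPKM in A549/DDP cells, against 3.0, 5.3 and 7.3 in A549 cells. These 3 genes were chosen for the text after their values were seen. Without any 1 library, 1 to 10 gene sums were called.

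Within genes, the ratio of retained-intron to CDS-not-defined rows was called higher in A549/DDP cells for 4 of 1962 genes (0.204%) and lower for 0 (limma), with 129 higher and 76 lower at an unadjusted p under 0.05. The lines did not overlap in the ratio of 354 genes (18%), of which the calls are part. In KRT8, the retained-intron sum was 1729, 2043 and 1490 FPKM in A549/DDP cells and 530, 266 and 452 FPKM in A549 cells, while the CDS-not-defined rows held 1.65, 0.484 and 0.617 FPKM in A549/DDP cells and 5.74, 2.56 and 2.75 FPKM in A549 cells. AKR1C3 moved in opposite directions as well. Its retained-intron rows summed to 108, 76.3 and 98.8 FPKM in A549/DDP cells, against 13.3, 20.2 and 14.5 FPKM in A549 cells, and its CDS-not-defined rows to 128, 99.8 and 113 FPKM in A549/DDP cells, against 255, 236 and 161 FPKM in A549 cells. In FXYD2 both sums were higher in A549/DDP cells, the retained-intron one by more. It was 26.4, 27.1 and 18.1 FPKM there, against 0.551, 0.135 and 0.00829 FPKM in A549 cells. The CDS-not-defined sum was 0.894, 1.25 and 1.11 FPKM, against 0, 0.0969 and 0 FPKM, and passed the filter only through A549/DDP cells. With 1 added to each sum, values this low pull the A549 ratio toward 0. Under other settings its adjusted p reached 0.669 (limma). In NAA20, the catalytic subunit of an N-terminal acetyltransferase, the ratio moved through the other type. The CDS-not-defined rows had 0.0742, 0.00666 and 0.0270 FPKM in A549/DDP cells, against 27.2, 20.5 and 14.2 FPKM in A549 cells. That sum passed the filter only through A549 cells, so its gap between the lines followed from the filter and is no support. The retained-intron row overlapped near the filter, at 0.929, 0.876 and 0.321 FPKM in A549/DDP cells and 0.136, 1.28 and 0.154 FPKM in A549 cells. The ratios of lowest p on the other side were those of USH1C, SLC7A7, UBA2, NIPSNAP2 and CA8, none of which passed (adjusted p between 0.0170 and 0.0876 from limma).

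Retained-intron rows of the splicing machinery, which is known for this kind of control, held 0 calls, where 0.353% of rows of any type were called higher and 0.198% lower. Of 33 tested rows of SR proteins, 53 of hnRNPs, 17 of CLK and SRPK kinases, 78 of core spliceosome components and 27 of nonsense-mediated decay factors, 0 were called by limma, and 2, 13, 3, 10 and 5 of them had an unadjusted p under 0.05, as did 21.7% of rows of any type. Their median log2 fold changes lay between 0.05 and 0.29, beside 0.14 for all rows. SRSF9-204, of an SR protein, had 17.2, 39.5 and 4.96 FPKM in A549/DDP cells, against 4.21, 32.8 and 13.8 FPKM in A549 cells, which overlapped. TRA2B-214, PCBP2-209, SNRPA-202 and CASC3-202 overlapped too, and HNRNPC-209, SF3A1-207 and CLK3-206 lay lower and SRPK1-201 and UPF1-212 higher in every A549/DDP library without passing the test. UPF1-212, of the helicase at the centre of nonsense-mediated decay, had 5.34, 5.38 and 5.97 FPKM in A549/DDP cells, against 3.79, 0.837 and 2.36 FPKM in A549 cells.

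Of the genes with well known detained introns, MAT2A, the enzyme that makes S-adenosylmethionine and whose intron retention responds to its level, stood apart. MAT2A-205 had 9.34, 5.52 and 8.91 FPKM in A549/DDP cells, against 1.13, 3.25 and 1.34 FPKM in A549 cells (log2 fold change 1.66, adjusted p = 0.0494 from limma, above the threshold of 0.01). This row holds intron 6 of 8 whole and ends within another intron. These data do not show whether either is the intron that responds to S-adenosylmethionine. OGT-210, of the O-GlcNAc transferase, had 10.4, 9.83 and 12.7 FPKM in A549/DDP cells, against 17.8, 17.4 and 10.2 FPKM in A549 cells, and overlapped. In all, 0 of 15 tested rows of these genes were called by limma, and 3 had an unadjusted p under 0.05. Ribosomal protein genes held the most rows of any list. Of their 169 tested rows 0 were called by limma and 23 had an unadjusted p under 0.05 (21.7% of rows of any type did), the median log2 fold change was 0.15, and their rows summed to 2355 to 2993 FPKM in A549/DDP cells and 2376 to 2865 FPKM in A549 cells. Of the gene sums of this list 1 was called, that of RPS27, with 11.5, 5.29 and 5.76 FPKM in A549/DDP cells, against 45.2, 33.7 and 33.6 FPKM in A549 cells (adjusted p = 0.00861 from limma).

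Genes of the NRF2 response and of glutathione metabolism, which detoxify electrophiles and supply NADPH, had the largest median of the lists. Of 49 tested rows, 1 was called (AKR1C3-210) and 31 had an unadjusted p under 0.05, where 21.7% of rows of any type did. In 33 rows all A549/DDP libraries lay above all A549 libraries, and in 1 row below, where 18.9% and 8.91% of rows of any type did so. The median log2 fold change was 0.91, and between 0.69 and 1.47 under the other settings. Their retained-intron rows summed to 842, 836 and 850 FPKM in A549/DDP cells, against 335, 364 and 341 FPKM in A549 cells. By gene, the sums of 11 of 17 lay higher in every A549/DDP library, as did 20.7% of sums of any kind, and that of ABCC3, a drug efflux pump, lay lower, as did 10% of sums of any kind. AKR1C2 had 201, 132 and 158 FPKM in A549/DDP cells, against 50.9, 42.4 and 63.2 FPKM in A549 cells. MGST3, a microsomal glutathione transferase, had 29.8, 38.6 and 43.0 FPKM in A549/DDP cells, against 9.84, 1.61 and 7.67 FPKM in A549 cells. TALDO1, an enzyme of the pentose phosphate pathway, had 15.5, 15.7 and 15.0 FPKM in A549/DDP cells, against 5.04, 4.63 and 6.03 FPKM in A549 cells. These sums did not pass the threshold (adjusted p = 0.0117, 0.0249 and 0.0128 from limma), and AKR1C3 did. These 3 genes and ABCC3 were named after their values were seen. HMOX1 and GCLC, a heme oxygenase and the catalytic subunit of the enzyme that starts glutathione synthesis, overlapped.

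**Figure D5:**
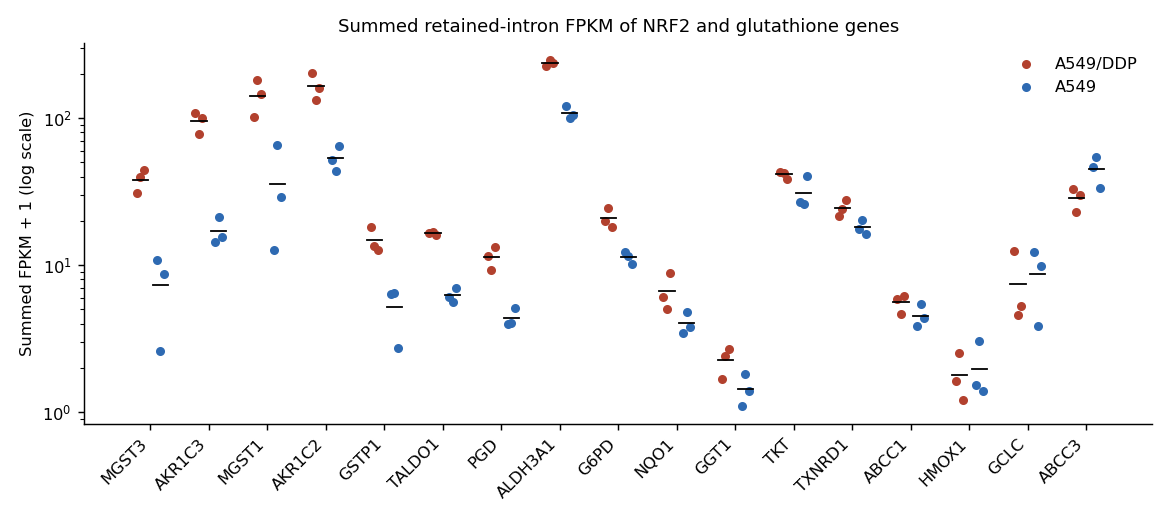
Summed retained-intron FPKM plus 1 (log scale) of the 17 tested NRF2 and glutathione genes, in order of log2 fold change, in 3 A549/DDP libraries (left of each pair) and 3 A549 libraries (right). Points are libraries and lines are means, and in 11 genes every A549/DDP library is above every A549 library, and in ABCC3 every one is below.

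Genes of DNA crosslink and excision repair, which remove cisplatin adducts, had 53 tested rows, of which 0 were called by limma and 13 had an unadjusted p under 0.05, where 21.7% of rows of any type did. In 19 rows the A549/DDP libraries all lay above the A549 libraries and in 0 below, beside 18.9% and 8.91% of rows of any type. The median log2 fold change was 0.40, and 0.21 after median-ratio scaling. DDB1-218, of a subunit of the damage sensor, had 24.2, 30.6 and 25.2 FPKM in A549/DDP cells, against 18.6, 17.4 and 20.3 FPKM in A549 cells. Aminoacyl-tRNA synthetase genes had a median of -0.14 over 50 tested rows, which turned to 0.012 with a filter of 2 FPKM. Of these rows 0 were called by limma and 10 had an unadjusted p under 0.05, where 21.7% of rows of any type did. In 9 rows all A549/DDP libraries were lower and in 2 higher, beside 8.91% and 18.9% of rows of any type. YARS1-206, of the tyrosine enzyme, had 7.87, 4.01 and 1.60 FPKM in A549/DDP cells, against 106, 81.4 and 27.9 FPKM in A549 cells (log2 fold change -3.70, adjusted p = 0.0239 from limma).

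As a check of the cell type, retained-intron rows of epithelial genes summed to 1810 to 2401 FPKM in A549/DDP cells and 533 to 728 FPKM in A549 cells, most of it from KRT8 and KRT18, whose sums were higher in every A549/DDP library. KRT7, another keratin of simple epithelia, lay the other way, with 30.3, 29.9 and 36.3 FPKM in A549/DDP cells, against 70.3, 58.4 and 51.2 FPKM in A549 cells (adjusted p = 0.0624 from limma), and MUC1, a membrane mucin, was also lower in every A549/DDP library. Of these 4 sums the one of KRT8 passed the test. The sums of EPCAM, CDH1 and KRT19 overlapped, and that of KRT19 was below 0.5 FPKM in every library. Retained-intron rows of fibroblast genes summed to less than 1 FPKM in each library, at 0.365 to 0.964 in A549/DDP cells and 0.227 to 0.464 in A549 cells. Those of immune genes were at 0 in all A549/DDP libraries and at most 0.112 in A549 cells, and those of endothelial genes were listed at 0 in all 6. Only 2 of 6 immune genes and 2 of 5 endothelial genes had a retained-intron row, so these sums cover a small part of each list.

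How the members changed varied little with the way the intron is held. The median log2 fold change was 0.17 in members with a whole intron, 0.13 where only the first exon began in an intron and 0.18 where only the last exon ended in one. It varied more with the makeup of the intron. In members whose retained introns had under 40% G or C the median was 0.35, from 40 to 50% it was 0.20, from 50 to 60% 0.11, and at 60% or more 0.09. By length, it was 0.05 for introns of 100 bases or less, 0.12 up to 300 bases, 0.23 up to 1000 bases and 0.30 above that. These are medians over members, which are no replicates, and carry no test. Base composition and depth can act on the libraries themselves, and their part in this order was not tested. Between members, the spread of log2(FPKM + 1) over the libraries of a line had a median SD of 0.27 in A549/DDP cells and 0.35 in A549 cells, close to the 0.28 and 0.36 of CDS-not-defined rows.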

How the data were processed

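RNA of 3 A549/DDP and 3 A549 libraries had been depleted of rRNA and sequenced from a strand-keeping kit. The deposited values are FPKM per transcript row, made by the authors. The study's methods name Trimmomatic, HISAT2 on hg38 and the Cufflinks tools, and the submitters' processing notes name CASAVA, HISAT2, StringTie and DESeq2, so which tool made the FPKM, and whether it used strand, is not given in the sources used here. Depth is unknown, so no count test, interval or floor was computed.

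Rows were matched by gene ID, strand and span to GENCODE 44 (GRCh38), and intron sequences were read from the same build. The members and gene lists were chosen with earlier results of these data known. Class values were compared by two-sided exact permutation tests over libraries. Rows that reached 0.5 FPKM in 3 or more libraries were tested with limma 3.58.1 (R 4.3.3, trend) on log2(FPKM + 1), a scale that understates changes of low rows, with Benjamini-Hochberg adjustment over all rows tested. A call needed a change of over 1 in log2 in either direction and an adjusted p below 0.01, as in the study's methods. The same fit was made for within-gene ratios and gene sums. The limma fits were tested on simulated data.

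The text names the 10 members of highest mean FPKM, up to 10 called members each way with a mean of at least 2 FPKM and lines that did not overlap, called ratios or the 5 of lowest p, and up to 3 called rows or else the 2 most abundant rows of each list. Members named by other rules are said to be so, and some rows picked by these rules are not described. Alternatives were other pseudocounts (0.1 and 0.01), filters (none and 2 FPKM), scalings, a test against a 2-fold change, a replicate block, rows left out and each library left out. Python 3.11.15 with pandas 2.3.3, numpy 2.4.6 and scipy 1.17.1 was used. The sequence of 1 further intron is not reported here.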

Additional observations from a re-analysis of the deposited data

How the results depend on the processing

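The share of the class kept its direction, with lines that did not overlap, in all alternatives run, at 2.07 to 4.67 points. The weighted span overlapped between the lines without the 10 most abundant members (-50.5 bases), as an unweighted median (-40.5) and without GAPDH-208 and KRT8-211 (-81.6). The median within-gene ratio overlapped with a pseudocount of 0.01 (0.0718), a filter of 2 FPKM (0.0686) and means over rows (0.0675), and lay between 0.0625 and 0.121 without any 1 library, overlapping at 0.0625 without A549 replicate 3. The pooled ratio overlapped without the 10 most abundant genes (0.145).

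Against 33 called members in the main fit, 0 members were called with a pseudocount of 0.01, without a filter or against a 2-fold change (limma). Without any 1 library 0 to 1 members were called (limma). The 1 called without A549/DDP replicate 1 was TUBA1B-201, which is not among the 33. The 4 called ratios became 1 with a filter of 2 FPKM and 0 with a pseudocount of 0.1 or 0.01, without a filter and without any 1 library (limma). The 49 called gene sums became 8 with a pseudocount of 0.01, 7 without a filter, 1 against a 2-fold change and 1 to 10 without any 1 library. The median of the aminoacyl-tRNA synthetase rows changed sign, to 0.012, with a filter of 2 FPKM. The cause was not tested. Leaving out GAPDH-208 and KRT8-211, the gene sums and the alternatives of the gene lists were chosen after seeing the data.

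The replicate numbers are shared by name only, since deviations of same-numbered libraries correlated at -0.033 to 0.015. With the replicate block, 0 members, 0 ratios and 3 gene sums were called (limma). Low FPKM without counts limits what the tests of rows can show.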

Other observations

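Some members were listed in 1 line only. In all, 18 were at 0 in the 3 A549 libraries and at 0.5 FPKM or more in each A549/DDP library, and 10 the other way round. The share of rows of any type that did so was not computed, so these counts cannot be read as particular to the class. FARSA-208, of a subunit of phenylalanyl-tRNA synthetase, had 1.82, 33.2 and 6.13 FPKM in A549/DDP cells and was listed at 0 in A549 cells (adjusted p = 0.0727 from limma). ESPL1-207, of separase, had 3.66, 6.54 and 2.70 FPKM in A549/DDP cells and was listed at 0 in A549 cells (adjusted p = 0.0103 from limma). SPARC-202, of a matrix glycoprotein, was listed at 0 in A549/DDP cells and had 2.05, 1.93 and 2.40 FPKM in A549 cells, and was called (adjusted p = 0.00678 from limma). These 3 were chosen after their values were seen, and an exact 0 can be a failed estimate of the quantification.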
